A study of Homo sapiens with 16 samples.

Results

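The integrated stress response was followed through 10 genes, ATF4, DDIT3, ATF3, ATF5, TRIB3, PPP1R15A, CHAC1, ASNS, SESN2 and DDIT4, chosen by name as ATF4, DDIT3 and known target genes of these factors. They are 10 of the 39007 genes in the deposited RNA-sequencing table, and all 10 were above the low-expression filter (a mean above 1 CPM, the gene's counts scaled to a fixed library total). The 16 libraries came from T24, a human bladder carcinoma cell line, and from GRC1, a line made from T24 by repeated rounds of exposure to gemcitabine, a nucleoside analog used against bladder cancer. There were 4 libraries each of the parental phase P0, the early phase P3, the intermediate phase P7 and the late phase P15, where the phase number counts the rounds of drug survival. GRC1 is 1 of 4 lines selected in the study, so all later phases belong to 1 line of descent. All cells were grown in the same serum-containing medium, and survivors of each round were expanded without drug. It is not stated whether gemcitabine was present when RNA was taken. Every sample title carries the letters NT, whose meaning is not given in the sources used here. Neither the labels nor the methods say that libraries of a phase came from separate cultures, so the p-values below measure the spread between libraries, which may be technical. Some S numbers in the titles recur between phases, and neither their meaning nor any batch is stated. A batch that follows phase could not be told apart from it.

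Cells enter the integrated stress response when 1 of 4 kinases phosphorylates the translation factor eIF2-alpha. Protein synthesis as a whole then slows, while the ATF4 mRNA is translated more, so that ATF4 is controlled largely at translation and its mRNA level is not a measure of its protein. ATF4 and its partners of the C/EBP family turn on genes for amino acid supply and tRNA charging, together with DDIT3, which encodes the factor CHOP, and the response limits itself through PPP1R15A (GADD34), which directs the removal of the phosphate from eIF2-alpha. In carcinoma cells the response is known to be set off by amino acid shortage, by unfolded protein in the endoplasmic reticulum and by other stresses. No protein or phosphorylation was measured in these libraries.

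The DNA element that ATF4 and a C/EBP partner occupy together was searched as TGATGNAA, on both strands, in RefSeq promoter windows of GRCh38.p14 that reach from 250 bases before each annotated start to 50 bases after it. It was found in 3 of the 10 genes (ASNS, CHAC1 and ATF3), beside 1217 of all 27305 genes with a window (4.46%). The stretches of 30 bases around these matches are shown because they are the site class through which ATF4 is known to act; they run 5′ to 3′ on the strand of the gene, with the match in capitals. The stretch of ASNS lies at chr7:97872458-97872487 on the minus strand, that of CHAC1 at chr15:40953251-40953280 on the plus strand, and that of ATF3 at chr1:212565205-212565234 on the plus strand. In CHAC1 the element is on the strand opposite to the gene and so appears as its reverse complement.
ASNS: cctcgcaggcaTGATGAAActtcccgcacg
CHAC1: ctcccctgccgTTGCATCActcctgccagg
ATF3: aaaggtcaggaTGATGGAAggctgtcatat
By GENCODE 44 annotation, the match of ASNS (-68 to -61 from the RefSeq start) and that of CHAC1 (-209 to -202) fall in untranslated exon sequence of a longer transcript, and that of ATF3 (-191 to -184) lies upstream of every annotated transcript. A match is a description of the letters only, and windows without these letters say nothing about binding.

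The same element occurs in genes of the pathway that are named further on, some of which are shown here. Not shown are HERPUD1 and MARS (MARS1 in RefSeq), higher at P15 than at P0 (1.43 and 0.89), and SLC38A1 and JDP2, lower there (-0.61 and -1.42). SLC1A5 and GOT1, shown first, rose at late phase P15, and SLC1A4, TARS (TARS1 in RefSeq) and BCAT1 fell there. Their stretches lie at chr19:46784893-46784922 on the minus strand, chr10:99430804-99430833 on the minus strand, chr2:64989381-64989410 on the plus strand, chr5:33440956-33440985 on the plus strand and chr12:24949131-24949160 on the minus strand, in that order.
SLC1A5: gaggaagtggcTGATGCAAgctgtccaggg
GOT1: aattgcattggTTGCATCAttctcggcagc
SLC1A4: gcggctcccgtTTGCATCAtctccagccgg
TARS1: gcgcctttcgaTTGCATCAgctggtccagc
BCAT1: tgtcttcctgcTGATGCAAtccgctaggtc
Across the gene lists described below, the element was in the windows of 7 of 10 cytosolic tRNA synthetase genes, 5 of 9 amino acid transporters, 3 of 8 amino acid and one-carbon synthesis genes and 2 of 16 other ATF4 or CHOP targets. It was in 1 of 19 genes of the IRE1-XBP1 and ATF6 branches, 1 of 10 genes of eIF2, eIF2B and the phosphatase, 0 of 12 p53 targets, 0 of 10 hypoxia targets and 0 of 3 kinase genes. The lists are of known targets, so these shares describe the lists and test nothing.

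**Figure D1:**
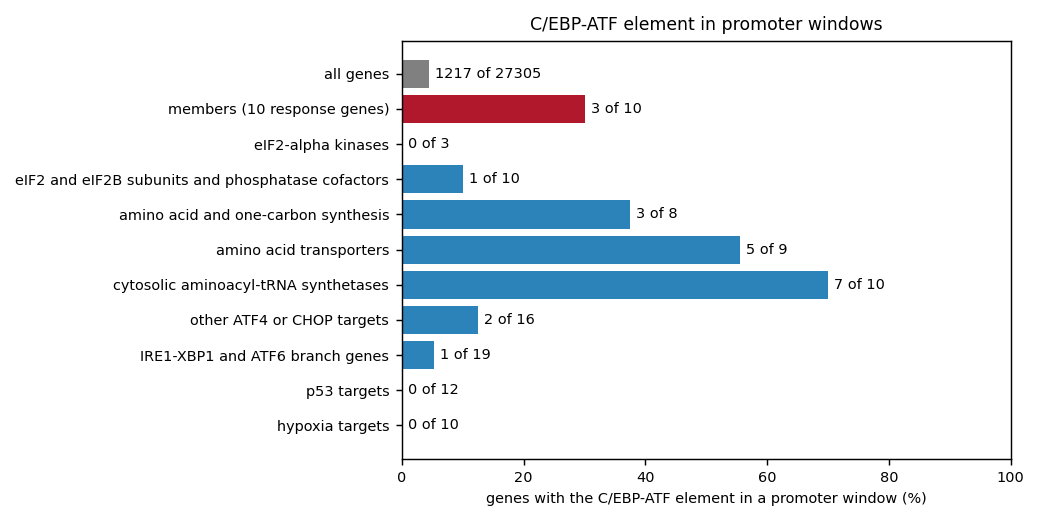
Share of genes (%) with the C/EBP-ATF element in a RefSeq promoter window, for all 27305 genes (grey), the 10 response genes (red) and each pathway list (blue), with the counts at the bar ends. The tRNA synthetases have the element in 7 of 10 genes and all genes in 4.46%.

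Values are log2 of CPM plus 1, as the authors deposited them, so 1 unit is close to a 2-fold change. For low genes the added 1 makes 1 unit stand for more than a 2-fold change in CPM. The gaps between the lowest values of a library put its total at 33.7 to 50 M counts, so that 1 count was worth 0.02 to 0.0297 CPM, and the lowest value of any of the 10 genes, that of ATF3 in P0 replicate 1 (1.85 CPM), still rested on about 70 counts. A gene was called changed at an adjusted p-value below 0.05 (limma on all 16 libraries, Benjamini-Hochberg adjustment over 13249 genes), and 2-fold changed when its log2 fold change also reached 1 in either direction. Libraries of a phase lay so close together that most genes passed the first threshold, and counts of the 10 genes are therefore given beside the share of all tested genes. Markers of the labelled tissue and of other cells differed between phases. The late phase stood apart in epithelial, leukocyte and fibroblast markers, and the parental phase in endothelial markers. KRT18 was 8.75 to 9.38 in all libraries, but 4 of the 5 epithelial markers were lower at P15 than at P0, KRT7 going from 9.82 to 9.95 at P0 to 3.59 to 3.73 at P15 and KRT19 being listed at 0 in 3 of the 4 late libraries. The summed epithelial level was 2070 to 2150 CPM at P0, 2350 to 2480 at P3, 1670 to 1810 at P7 and 673 to 750 at P15. The 4 urothelial markers summed to at most 3.07 CPM in any library, with UPK1B and UPK3A at 0 in 15. The 4 leukocyte markers, of which PTPRC and CD3E were at 0 in 15 libraries each, summed to 84.0 to 243 CPM until P7, nearly all of it LAPTM5, and to 0.571 to 0.732 CPM at P15. The 3 endothelial markers summed to 5.95 to 7.95 CPM at P0 and to at most 1.09 CPM in any library of the later phases. The 4 fibroblast markers, with DCN at 0 in 15 libraries, summed to 1.68 to 5.77 CPM until P7 and 23.5 to 26.4 CPM at P15. The part of these shifts in the results was not tested, and in bulk RNA fewer cells with a transcript and less of it per cell cannot be told apart.

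At late phase P15, 9 of the 10 genes were higher than at every earlier phase, which was true of 37.2% of all tested genes (for ATF4 against P0, not under quantile normalization), and 6 (DDIT3, ATF3, TRIB3, ASNS, SESN2 and DDIT4) were at least 2-fold higher than at each of the 3 earlier phases, which was true of 9.28%. ATF5 was lower at P15 than at every other phase. The earlier steps divided the genes: at P3 the level of ATF4, TRIB3 and ASNS fell while that of the other 7 rose, and at P7 TRIB3 and ASNS came back up while ATF3 and PPP1R15A came down. The library values follow by the role of each gene.

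**Figure D2:**
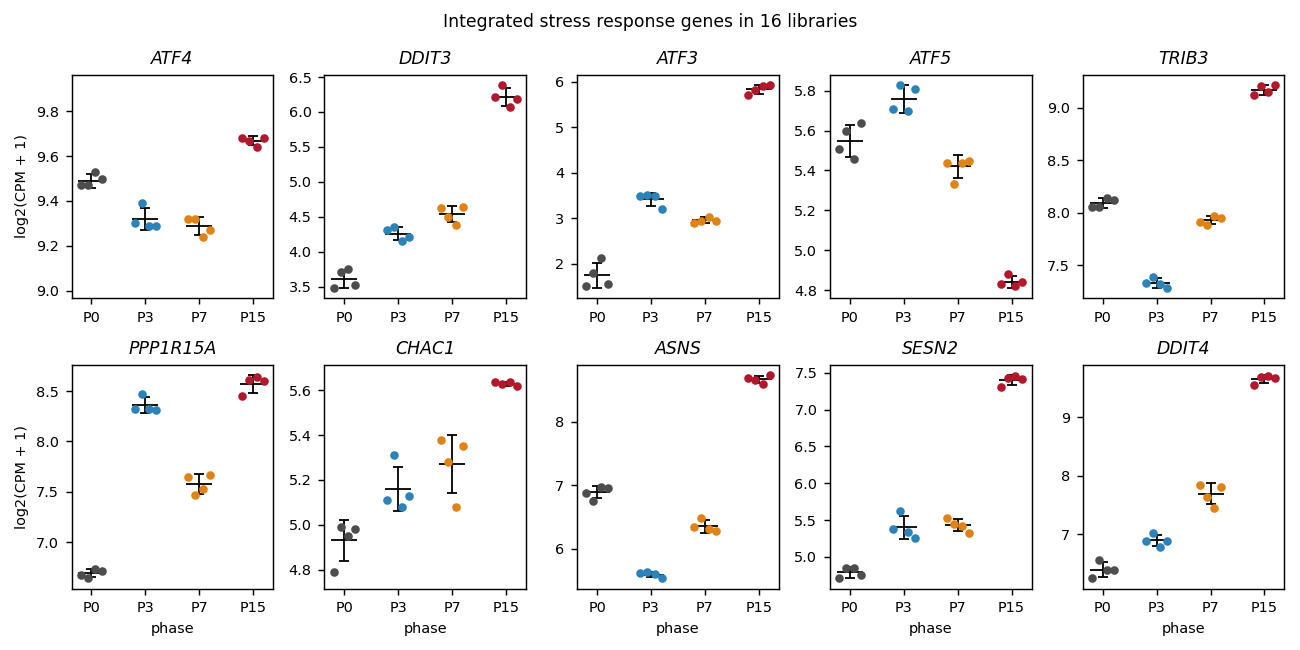
Log2(CPM + 1) of the 10 genes in each of the 16 libraries (points), by phase, with the mean (long bar) and 1 SD (whiskers) of the 4 libraries; each panel has its own vertical range, which does not start at 0. The P15 libraries sit above all others for 8 genes (ATF4 among them, whose difference from P0 turned under quantile normalization) and below all others for ATF5. For PPP1R15A their range (8.45 to 8.64) overlaps that of P3 (8.31 to 8.47).

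ATF4 (chromosome 22, 39519695 to 39522683, plus strand, GRCh38 for this and all following positions) encodes the central transcription factor of the response. Its log2 values were 9.47, 9.47, 9.53 and 9.50 in P0 replicates 1 to 4, and 9.30, 9.39, 9.29 and 9.29 at P3. They were 9.32, 9.32, 9.24 and 9.27 at P7 and 9.68, 9.67, 9.64 and 9.68 at P15. The P15 libraries were all above the rest, and the P3 and P7 libraries overlapped each other below P0. The whole span was narrow: ATF4 fell by 0.18 from P0 to P3 (SE 0.03, adjusted p = 1.5e-05), was 0.03 lower at P7 than at P3 with a 95% interval of -0.09 to 0.03 (adjusted p = 0.4), and rose by 0.38 from P7 to P15 (SE 0.03, adjusted p = 1.4e-11). The difference of 0.17 between P15 and P0 (SE 0.03, adjusted p = 7.8e-06) depended on the scaling of the libraries, since quantile normalization turned it to -0.013 (adjusted p = 0.73). Its pseudogene copies ATF4P3 and ATF4P4 reached at most 0.58 and 0.36 CPM, beside a mean of 624 to 812 CPM for ATF4.

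DDIT3 (chromosome 12, 57516588 to 57521737, minus strand) encodes CHOP, a C/EBP-family factor that ATF4 induces and that is tied to cell death when stress persists. Its values were 3.48, 3.71, 3.75 and 3.52 at P0, 4.31, 4.36, 4.16 and 4.21 at P3, 4.62, 4.50, 4.38 and 4.64 at P7, and 6.22, 6.39, 6.07 and 6.19 at P15. Each phase lay wholly above the phase before it. In CPM the phase means went from 11.3 ± 1.1 (SD, n = 4 libraries) to 18.2 ± 1.2, 22.2 ± 1.9 and 73.6 ± 6.9. DDIT3 rose by 0.65 at the first step, P0 to P3 (SE 0.07, adjusted p = 4.2e-08), by 0.28 from P3 to P7 (SE 0.07, adjusted p = 0.0026) and by 1.68 from P7 to P15 (SE 0.07, adjusted p = 1.3e-16), so that P15 exceeded P0 by 2.6 on the log2 scale (95% interval 2.45 to 2.75). Of the 1307 exon bases of DDIT3, 355 are shared with MARS, the methionyl-tRNA synthetase gene on the opposite strand, and 58 with MBD6, also on the opposite strand. The strand setting of the counting is not given in the sources used here, so reads there may belong to either gene. A further 105 bases are shared with another annotated protein-coding gene on the same strand, where a strand setting could not separate the reads. MARS itself fell at P3 (-0.60) and was higher at P15 than at P0 (0.89), and MBD6 had log2 fold changes of -0.43 and 0.19.

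ATF3 (chromosome 1, 212565334 to 212620777, plus strand), a stress-induced factor of the ATF/CREB family, had the widest span of the 10 genes. Its values were 1.51, 1.80, 2.13 and 1.56 at P0, 3.48, 3.52, 3.49 and 3.21 at P3, 2.89, 2.94, 3.04 and 2.95 at P7, and 5.70, 5.81, 5.90 and 5.92 at P15. No phases overlapped, and P7 lay between P0 and P3. On the linear scale this was 2.41 ± 0.70 CPM at P0, 9.78 ± 1.0 at P3, 6.76 ± 0.34 at P7 and 56.1 ± 3.9 at P15. ATF3 rose by 1.68 from P0 to P3 (SE 0.10, adjusted p = 5.4e-13), fell by 0.47 from P3 to P7 (SE 0.10, adjusted p = 0.00036) and rose by 2.88 from P7 to P15 (SE 0.10, adjusted p = 1.7e-18). Between P15 and P0 the log2 fold change was 4.08 (95% interval 3.87 to 4.29), and the ratio of mean CPM was 23.2.

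ATF5 (chromosome 19, 49928702 to 49933935, plus strand), a factor related to ATF4 whose mRNA is also under translational control, went the other way. It lay between 5.46 and 5.64 at P0, 5.70 and 5.83 at P3, 5.33 and 5.45 at P7, and 4.82 and 4.88 at P15. The early phase was the highest and the late phase the lowest, with no shared range. The log2 fold change was 0.21 at P3 against P0 (adjusted p = 0.0003), -0.35 at P7 against P3 (adjusted p = 7.5e-07) and -0.57 at P15 against P7 (SE 0.05, adjusted p = 2.4e-11), and P15 was 0.71 below P0 (-0.71, SE 0.05, adjusted p = 3.8e-13). ATF5 shares 565 of its 2892 exon bases with NUP62 on the opposite strand, which was 0.15 higher at P15 than at P0, and 75 with IL4I1, whose log2 fold change was -2.57.

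TRIB3 (chromosome 20, 362835 to 397559, plus strand) encodes a pseudokinase that ATF4 and CHOP induce and that holds both factors back. Its values were 8.05, 8.05, 8.14 and 8.12 at P0, 7.33, 7.39, 7.32 and 7.28 at P3, 7.91, 7.88, 7.97 and 7.95 at P7, and 9.12, 9.21, 9.15 and 9.22 at P15. The 4 phases were separate, in the order P3, P7, P0 and P15 from low to high. TRIB3 fell by 0.76 at P3 (SE 0.03, adjusted p = 9.1e-16), rose by 0.60 at P7 (adjusted p = 2.7e-13), which left it 0.16 below P0 (-0.16, adjusted p = 0.00016), and rose by 1.25 at P15 (adjusted p = 5e-21). The mean at P15 was 577 ± 19 CPM (SD, n = 4), against 272 ± 8.9 at P0.

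PPP1R15A (chromosome 19, 48872212 to 48876059, plus strand), the GADD34 gene whose product recruits the phosphatase that ends eIF2-alpha phosphorylation, was already high in the early phase. Its values were 6.67, 6.64, 6.73 and 6.71 at P0, 8.32, 8.47, 8.32 and 8.31 at P3, 7.65, 7.47, 7.53 and 7.67 at P7, and 8.45, 8.61, 8.64 and 8.60 at P15. The highest P3 library lay above the lowest P15 library. From P0 to P3 the rise was 1.67 (SE 0.05, adjusted p = 2e-19), from P3 to P7 it fell by 0.78 (SE 0.05, adjusted p = 1.1e-12), and from P7 to P15 it rose by 0.99 (SE 0.05, adjusted p = 4.4e-16), just short of 2-fold. It passed 2-fold under quantile normalization (1.05) and without P7 replicate 1, P7 replicate 4 or P15 replicate 1. P15 exceeded P3 by only 0.22 (adjusted p = 0.00011). At P3, PPP1R15A thus rose and TRIB3 fell, though both restrain the response.

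ASNS (chromosome 7, 97851677 to 97872542, minus strand), the asparagine synthetase gene and a textbook ATF4 target, had its lowest values at P3 and its highest at P15. Its values were 6.88, 6.75, 6.97 and 6.95 at P0, 5.61, 5.63, 5.60 and 5.53 at P3, 6.34, 6.49, 6.31 and 6.27 at P7, and 8.69, 8.66, 8.59 and 8.74 at P15. No phases overlapped, and their order was that of TRIB3. In CPM, ASNS went from 118 ± 8.0 to 47.3 ± 1.4, 80.9 ± 5.6 and 407 ± 18 (SD, n = 4). The log2 fold change was -1.29 at P3 against P0 (SE 0.05, adjusted p = 4.4e-17), 0.76 at P7 against P3 (adjusted p = 3e-12) and 2.32 at P15 against P7 (adjusted p = 3.6e-23). P15 exceeded P0 by 1.78 (95% interval 1.68 to 1.88) and P3 by 3.08 (95% interval 2.98 to 3.18). In GENCODE 44, 2415 of its 4896 exon bases also belong to an overlapping lncRNA on the same strand, and the pseudogenes ASNSP1, ASNSP3 and ASNSP4 reached at most 0.1 CPM.

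CHAC1 (chromosome 15, 40952962 to 40956512, plus strand), which encodes a glutathione-degrading enzyme, had the smallest rise from P0 to P15 among the targets that rose. It lay between 4.79 and 4.99 at P0, 5.08 and 5.31 at P3, 5.08 and 5.38 at P7, and 5.62 and 5.64 at P15. The P3 and P7 ranges overlapped, with a difference of 0.11 (95% interval -0.01 to 0.24, adjusted p = 0.11), which passed the threshold without P3 replicate 2 (0.166, adjusted p = 0.023) or without P7 replicate 3 (0.179, adjusted p = 0.0092). CHAC1 rose by 0.23 at P3 against P0 (adjusted p = 0.0018) and by 0.36 at P15 against P7 (adjusted p = 6.6e-06), and P15 exceeded P0 by 0.70 (SE 0.06, adjusted p = 9.3e-11).

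SESN2 (chromosome 1, 28259518 to 28282491, plus strand) and DDIT4 (chromosome 10, 72273919 to 72276036, plus strand) both encode restraints on the growth kinase complex mTORC1, SESN2 as a leucine sensor and DDIT4 (REDD1) through the TSC complex. SESN2 values were 4.71, 4.85, 4.85 and 4.76 at P0, 5.38, 5.63, 5.34 and 5.26 at P3, 5.53, 5.45, 5.42 and 5.33 at P7, and 7.30, 7.43, 7.45 and 7.42 at P15. SESN2 thus made a step at P3 (0.61, SE 0.06, adjusted p = 4.1e-09) and a larger step at P15 (1.97 against P7, SE 0.06, adjusted p = 1.1e-19), with overlapping values at P3 and P7 (difference 0.03, 95% interval -0.10 to 0.16, adjusted p = 0.69). DDIT4 values were 6.24, 6.55, 6.38 and 6.39 at P0, 6.88, 7.01, 6.78 and 6.88 at P3, 7.85, 7.64, 7.45 and 7.81 at P7, and 9.56, 9.69, 9.71 and 9.67 at P15. Like DDIT3, DDIT4 was higher at each phase than at the one before, with log2 fold changes of 0.50 (adjusted p = 7.6e-07), 0.80 (adjusted p = 6.7e-10) and 1.97 (adjusted p = 1.2e-18). From P0 to P15 DDIT4 went from 83.1 ± 7.4 to 807 ± 37 CPM (SD, n = 4), a log2 fold change of 3.27 (95% interval 3.13 to 3.41).

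**Figure D3:**
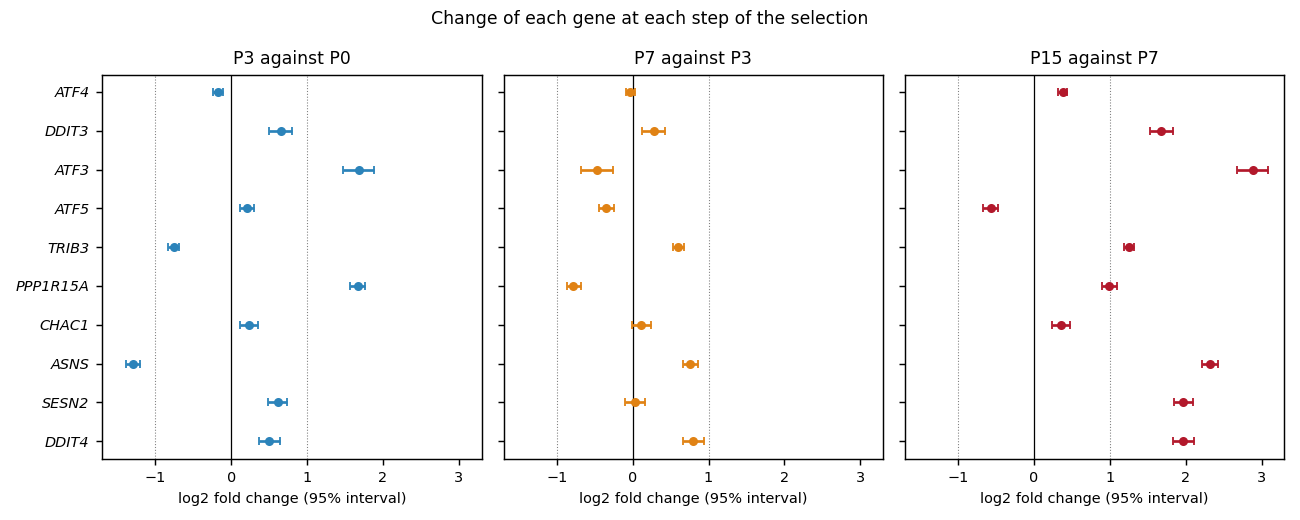
Log2 fold change of each of the 10 genes (points) with its 95% interval (bars) from limma at the steps P0 to P3 (left), P3 to P7 (middle) and P7 to P15 (right); dotted lines mark 2-fold. At P3 ATF4, TRIB3 and ASNS lie left of 0, at P7 TRIB3 and ASNS lie right of it, and at P15 every gene but ATF5 does.

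At P3 against P0, all 10 genes were changed, 7 higher and 3 lower, where 68.7% of all tested genes were changed, 31.4% higher and 37.3% lower. At this step 3 genes reached 2-fold (ATF3, PPP1R15A and ASNS), against 4.47% of all tested genes. At P7 against P3, 7 were changed (58.2% of all tested genes), with DDIT3, TRIB3, ASNS and DDIT4 higher and ATF3, ATF5 and PPP1R15A lower (30.3% higher and 28.0% lower among all), and 0 reached 2-fold (1.84%). At P15 against P7, all 10 were changed (86.4%), 9 of them higher (46.3%) and ATF5 lower (40.1%). A 2-fold change was seen in 6 (25.5%), all of them higher (13.4%). At P7 against P0, all 10 were changed (62.1%), 6 higher (27.9%) and 4 lower (34.2%), with 2-fold changes of ATF3 (1.21) and DDIT4 (1.30), where 3.37% of all tested genes had one. The call of ATF5 in that comparison (-0.14, adjusted p = 0.012) was lost without P0 replicate 4 (adjusted p = 0.058) or P7 replicate 2 (adjusted p = 0.051). Over the whole selection, P15 against P0, all 10 were changed (86.2%), 9 of them higher (45.3%), with ATF4 among these only without quantile normalization, and ATF5 lower (40.9%). A 2-fold change was seen in 7 (23.6%), all of them higher (12.2%), PPP1R15A being added to the former 6. The median log2 fold change was 1.47 for the 10 genes and 0.05 for all tested genes at P15 against P7, 0.07 and 0.01 at P7 against P3, and 0.36 and -0.02 at P3 against P0. The library ranges of the compared phases did not overlap for 10 genes at P3 against P0 (60.1% of all tested genes), for 7 at P7 against P3 (51.9%) and for 10 at P15 against P7 (80.8%). Neighbouring steps share the libraries of the phase between them, so a fall at P3 and a rise at P7 are not independent measurements.

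Genes with profiles most like those of ATF4 and DDIT3 were sought by the root mean square difference of library values after centring each gene on its mean over the 16 libraries. Nearest to ATF4 were BTF3 (0.040 on the log2 scale), which encodes a subunit of the nascent-chain complex at the ribosome, SGPL1 (0.046), which encodes sphingosine-1-phosphate lyase, and EIF3I (0.047), which encodes a subunit of the initiation factor eIF3. The nearest of the other 9 genes was CHAC1 at 0.231, in place 3966 among the tested genes. Values were centred but not scaled, so the distance depends on the size of the changes as well as on their shape. The phase means of ATF4 ran only from 9.29 to 9.67, so genes that changed more could not lie near it, whatever their shape. Nearest to DDIT3 were ARRDC4 (0.130), an arrestin-domain gene, SESN2 (0.159) and CDADC1 (0.167). SESN2 was the only response gene among these 6 profiles. The phase means of ARRDC4 were 2.41, 3.04, 3.09 and 4.90, those of SESN2 4.79, 5.40, 5.43 and 7.40. What each point shares is the same 16 libraries, and the distance says nothing of common control.

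The eIF2-alpha kinase genes stand at the head of the pathway, and at P15 against P7 EIF2AK4 was higher and the other 3 were lower. EIF2AK3 (PERK, the sensor in the endoplasmic reticulum) was highest at the intermediate phase, with 3.96, 3.89, 3.87 and 3.92 at P0, 4.07, 3.85, 4.15 and 4.13 at P3, 4.48, 4.56, 4.35 and 4.48 at P7, and 3.80, 3.81, 3.81 and 3.81 at P15. It rose by 0.42 from P3 to P7 (adjusted p = 5.2e-06), fell by 0.66 from P7 to P15 (adjusted p = 6.7e-10) and differed between P15 and P0 by -0.10 (95% interval -0.23 to 0.03, adjusted p = 0.13). EIF2AK4 (GCN2, the sensor of uncharged tRNA) was lowest at P7 (6.63 to 6.70), rose by 0.35 from P7 to P15 (SE 0.04, adjusted p = 7.3e-09) with no overlap between those phases, and had a P15 to P0 difference of -0.06 (95% interval -0.15 to 0.02, adjusted p = 0.12). EIF2AK1 (HRI, the heme sensor) and EIF2AK2 (PKR, the sensor of double-stranded RNA) were lower at P15 than at P0, by log2 fold changes of -0.38 and -0.71 (adjusted p = 2.5e-11 and 1.4e-14 from limma). These are mRNA levels, and the kinases act through their activation, which was not measured.

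The machinery on which the kinases act went in both directions, as all tested genes did. Of 12 genes of eIF2, its exchange factor eIF2B and the phosphatase, 4 were higher and 6 lower at P15 against P0. Among all tested genes 45.3% were higher and 40.9% lower, with a median log2 fold change of 0.04. The median of the 12 genes was -0.15. The largest rises were those of EIF2B3 (1.12), a subunit of the exchange factor that phosphorylated eIF2 blocks, and PPP1CC (0.41), a catalytic subunit of protein phosphatase 1. The largest falls were those of its other catalytic subunits PPP1CA (-1.03) and PPP1CB (-0.42). The catalytic partners of GADD34 went in different directions, and PPP1R15A itself was 1.89 higher at P15 than at P0.

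The other 113 genes of the response and its neighbouring pathways, of which 111 were tested, were grouped into lists of known genes, which partly share members with each other and leave out the 10 genes above. Of the 111, 94 were changed at P3 against P0 (68.7% of all tested genes), 81 at P7 against P3 (58.2%) and 103 at P15 against P7 (86.4%). Of 13 genes of amino acid and one-carbon synthesis, 11 were lower at P3 than at P0 and 0 higher, with a median log2 fold change of -0.57, and of 12 cytosolic aminoacyl-tRNA synthetase genes all 12 were lower (median -0.47), against a median of -0.02 and 37.3% lower among all tested genes. ASNS and TRIB3 fell at the same step. At P7 against P3, 11 of 13 and 11 of 12 were higher (medians 0.38 and 0.30), where 30.3% of all tested genes were. In the opposite sense, 17 of 19 genes of the IRE1-XBP1 and ATF6 branches, the arms of the unfolded protein response that do not run through eIF2-alpha, were higher at P3 (median 0.41), beside 31.4% of all tested genes.

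At P15 each list had members in both directions, as had all tested genes, of which 46.3% were higher and 40.1% lower than at P7. Of the synthesis genes, 9 were higher and 4 lower than at P7 (median 0.92). Against P0 the largest rises were those of ALDH1L2 (1.83), a mitochondrial folate enzyme, and GOT1 (1.42), an aspartate aminotransferase. ALDH1L2 had means of 0.69, 0.45 and 0.52 at P0, P3 and P7, where a value of 1 stands for 1 CPM. Its mean was 2.52 at P15, and it passed the low-expression filter only through that phase. The largest falls were those of BCAT1 (-0.74), a branched-chain aminotransferase, and SHMT2 (-0.65), the mitochondrial serine hydroxymethyltransferase. Of the synthetases, 10 were higher and 2 lower than at P7 (median 0.65), with YARS (1.08) and SARS (0.97) raised most against P0 and TARS (-0.86) and WARS (-0.60) lowered. These genes charge tRNA with tyrosine, serine, threonine and tryptophan. Of 10 transporters tested, 4 were higher and 5 lower at P15 against P7 (median -0.07), shares near those of all tested genes. SLC1A5 and SLC38A2, both carriers of glutamine and other neutral amino acids, rose by 1.46 and 1.41 against P0, while their relatives SLC1A4 and SLC38A1 had log2 fold changes of -1.78 and -0.61.

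Among 20 other targets ascribed to ATF4 or CHOP, 12 were higher and 6 lower at P15 against P7 (median 0.61), and 14 were higher and 6 lower against P0. The shares of all tested genes were 46.3% higher and 40.1% lower against P7 (median 0.05), and 45.3% and 40.9% against P0. BBC3, which encodes the pro-apoptotic protein PUMA, went from a mean of 3.46 at P0 to 3.12, 3.76 and 6.37 (P15 against P0 2.91, adjusted p = 1.8e-21). GDF15, a secreted stress cytokine, had means of 7.04, 5.28, 6.89 and 9.30, so that it fell by 1.76 at P3 (adjusted p = 8.7e-17) and came to 2.26 above P0 at P15 (adjusted p = 6.4e-20). Its lowest phase was P3 and its highest P15, as for ASNS and TRIB3, while its P7 to P0 difference (-0.15) did not pass the threshold (adjusted p = 0.065). The falls were led by JDP2 (-1.42), a repressor of AP-1 sites, and SQSTM1 (-1.09), the autophagy receptor p62.

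Of the 19 genes of the IRE1-XBP1 and ATF6 branches, 13 were lower and 4 higher at P15 against P7 (median -0.41). Of all tested genes 40.1% were lower and 46.3% higher at this step (median 0.05), and 9 of the 10 response genes rose. HSPA5, the chaperone BiP, had means of 9.49, 9.73, 10.6 and 10.76 at P0, P3, P7 and P15, and HERPUD1, a factor of endoplasmic-reticulum-associated degradation, had 5.96, 5.94, 6.98 and 7.40. Both were above P0 at P15, by 1.28 and 1.43. DNAJC3, an inhibitor of PERK, went from 8.31 at P7 to 5.68 at P15 (-2.63, adjusted p = 6.6e-27), and EDEM1, of the degradation pathway, from 7.37 to 5.64 (-1.73). Against P0, 17 of the 19 genes were higher at P7, beside 27.9% of all tested genes. Their median was 0.81 at P7 and 0.39 at P15. That of the 10 response genes was 0.49 at P7 and 1.83 at P15, and that of all tested genes -0.03 and 0.04.

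**Figure D4:**
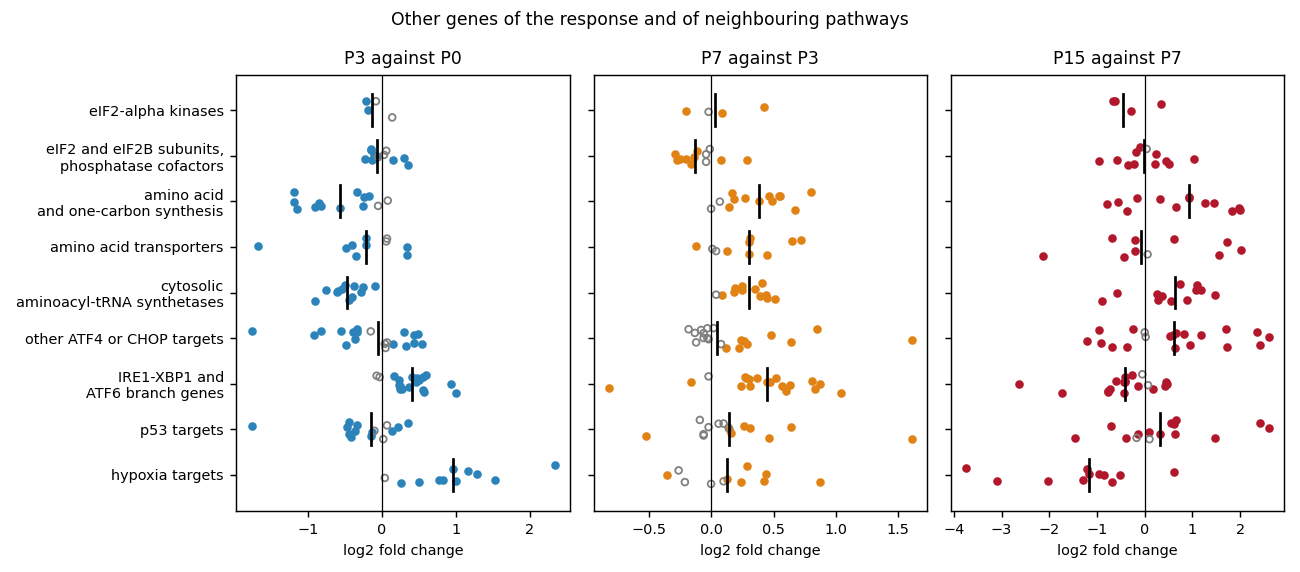
Log2 fold change of each tested gene of the 9 lists at the steps P0 to P3, P3 to P7 and P7 to P15; filled points passed an adjusted p-value of 0.05, open points did not, and the black bar is the median of the list. At P3 the synthetases all lie left of 0 (median -0.47), and at P15 the hypoxia targets have a median of -1.17.

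Of the tested genes on these lists with the C/EBP-ATF element in a promoter window, the 10 response genes left out, 11 of 19 were lower and 2 higher at P3 against P0 (median -0.23), beside 37.3% and 31.4% of all tested genes. At P7 against P3, 13 were higher and 2 lower (median 0.19), beside 30.3% and 28.0%. At P15 against P7, 12 were higher and 7 lower (median 0.36), beside 46.3% and 40.1%. Of these 19 genes, 7 are the synthetases with a match, which are also counted in the synthetase list above. The synthetases in which no match was found fell at P3 as well: EPRS (-0.50), LARS (-0.38), SARS (-0.25), WARS (-0.09) and YARS (-0.54). Whether the element had a part in these changes was not tested. SLC1A5, which rose at P15, and SLC1A4, which fell, hold the same letters of the element on opposite strands. Of the 3 response genes with it, ASNS fell at P3 while CHAC1 and ATF3 rose, and all 3 rose at P15.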

How the data were processed

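Total RNA of 16 libraries (4 per phase) was sequenced. Reads were aligned with STAR 2.6.1a to GRCh38, as the submitters' processing notes say, and counted on genes with featureCounts. As deposited by the authors, each value is the log2 of a gene's CPM after adding 1, with 2 decimals. The quantile normalization and median centring named in the methods were not seen in these values. Replicate numbers are those of the sample descriptions.

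Each phase was given 1 coefficient in a limma model (3.58.1, R 4.3.3) with a variance trend. Genes with a mean of 1 CPM or less were left out, and p-values were adjusted by Benjamini-Hochberg over the other 13249. The procedure was tested on simulated data with independent noise in each library. Such data cannot show the effect of technical libraries or of a batch that follows phase. Tables and figures were made in Python 3.11.15 with numpy 2.4.6, pandas 2.3.3 and matplotlib 3.10.9. Positions are from GENCODE 44.

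The members and gene lists were chosen with earlier results of these data known. Genes were named by a rule: the 10 members, the 4 kinases, the 2 largest rises and 2 largest falls of each list at P15 against P0, and the 3 nearest profiles of ATF4 and DDIT3. MARS, MBD6, NUP62, IL4I1, the pseudogenes and the markers are given as checks (1 marker gene is not reported here and was left out of its list). Alternatives were other filters, pseudocounts of 0.1 and 5, other scalings, a replicate block, no variance trend, pairs of phases alone, no fold threshold and each library left out in turn.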

Additional observations from a re-analysis of the deposited data

Results flagged for a closer look

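In 7 of 56 groups of 4 libraries (10 members and 4 kinases in 4 phases), the outermost library was separated from its nearest neighbour by a share of the group's range above Dixon's 95% critical value, where chance gives about 1 in 20 groups, or 3. At P3, replicate 2 was the highest for ATF4 (9.39 against 9.29 to 9.30, share 0.90) and for PPP1R15A (8.47 against 8.31 to 8.32, share 0.94), replicate 4 the lowest for ATF3 (3.21 against 3.48 to 3.52, share 0.87) and replicate 1 the highest for EIF2AK4 (6.91 against 6.85 to 6.86, share 0.83). At P7, replicate 2 was the lowest for ATF5 (5.33 against 5.44 to 5.45, share 0.92). At P15, replicate 3 was the highest for EIF2AK4 (7.12 against 6.98 to 7.00, share 0.86), and replicate 1 the lowest for EIF2AK3 with a share of 1.0, a gap of the last printed decimal (3.80 against 3.81).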

How the results depend on the processing

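Under the alternatives run, libraries left out included, the number of changed members stayed at 10 for P3 against P0, P15 against P7 and P15 against P3. Of all 13249 tested genes, 11557 were changed at P15 against P3. The number of changed members was 7 to 8 for P7 against P3 (CHAC1 gained). It was 9 to 10 for P7 against P0 (ATF5 lost) and P15 against P0 (ATF4 lost). Without the fold threshold the 2-fold counts became these counts (10 at P3 against P0, 7 at P7 against P3, and 10 at P15 against P7, P7 against P0 and P15 against P3), by construction. With a pseudocount of 5, the 2-fold count at P7 against P0 was 1 in place of 2 and that at P3 against P0 was 2 in place of 3 (ATF3 at 0.997). The count at P15 against P7 was 7 in place of 6 under quantile normalization and without P7 replicate 1, P7 replicate 4 or P15 replicate 1, with PPP1R15A at 1.018 to 1.054. Quantile normalization turned the difference of ATF4 at P15 against P0 to -0.013, and the cause was not tested. The difference of SESN2 at P7 against P3 ran from -0.018 to 0.106 when libraries were left out (below 0 without P3 replicate 4 or P7 replicate 1), at no setting past the threshold. Of the other alternatives for single genes, 1553 kept direction and side of the threshold, 2 lost the call and 2 gained it, all 4 from leaving out a library. The replicate number as a block, by either numbering, changed no call of the 10 members (10 changed at P15 against P0). Same-numbered libraries deviated from their phase means with correlations between -0.147 and 0.218 over 24 pairs, above 0.1 in 1 of them, and were not treated as pairs. Every member rested on about 70 counts or more in each library.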

Other observations

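Neighbouring stress programmes share targets with the response and were read through 2 further lists. Of 15 p53 targets, 9 were lower and 3 higher at P3 against P0 (median log2 fold change -0.15), beside 37.3% and 31.4% of all tested genes. At P15 against P0, 10 were higher and 5 lower (median 0.20), beside 45.3% and 40.9% of all tested genes (median 0.04). The largest rises were those of BBC3 (2.91) and GDF15 (2.26), which are also counted among the ATF4 or CHOP targets, and the largest falls those of FAS (-1.17), a death receptor gene, and TP53INP1 (-0.69), a stress-induced regulator of p53. SESN2, itself a known p53 target as well, was 2.61 higher.

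Hypoxia targets had another course. Of 11 tested, 10 were higher at P3 than at P0 (median 0.96) and 10 were lower at P15 than at P7 (median -1.17), beside 31.4% and 40.1% of all tested genes. NDRG1, a hypoxia- and stress-induced gene, had means of 6.0, 8.34, 9.21 and 7.19 at P0, P3, P7 and P15, BNIP3, of mitochondrial autophagy, 6.98, 8.51, 8.64 and 5.54, and ADM, the adrenomedullin gene, 6.21, 7.22, 6.87 and 3.12. ANKRD37 was the only one higher at P15 than at P7 (0.61, adjusted p = 0.0045 from limma). DDIT4, also known as a hypoxia target, rose by 0.50 at P3 with this list and by 1.97 at P15, where 10 of the 11 fell.

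The endoplasmic reticulum stress element, searched as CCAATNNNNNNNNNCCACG on both strands, was chosen after the data were seen. It was in promoter windows of 6 of 19 genes of the IRE1-XBP1 and ATF6 branches, in 0 of the 10 response genes and in 25 of all 27305 genes (0.0916%). HSP90B1, which holds the element, was above P0 by 0.47 at P3, 1.06 at P7 and 0.93 at P15. The stretch of HSPA5, a chaperone gene that was also higher at P7 and P15 than before, is shown as an example. It lies at chr9:125241386-125241414 on the minus strand of GRCh38.p14, with the element in capitals.
HSPA5: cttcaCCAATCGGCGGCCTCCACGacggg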
